A study of Mus musculus with 4 samples.

Results

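Marco and 6 other scavenger receptor genes, Msr1, Cd36, Scarb1, Scarb2, Stab1 and Colec12, were examined by bulk RNA sequencing of splenic polymorphonuclear myeloid-derived suppressor cells (PMN-MDSCs). These 7 genes are among 28585 genes with deposited values. The set was chosen by the measured level of Marco, which was higher in both Dhps cko libraries than in both Dhps flox libraries, and the other 6 were added as receptors of the same broad family. The difference in Marco is therefore given as a description, with no test. The questions were whether the other receptors followed Marco and which cells of the sorted population carried markers that moved with them.

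Data came from 4 libraries of pups on postnatal day 7, all on a C57BL/6J background. Both groups carried the floxed Dhps allele (Dhps fl/fl), which encodes deoxyhypusine synthase, the enzyme that starts the hypusine modification of the translation factor eIF5A. The 2 Dhps cko libraries came from pups that also carried Lysm cre, and the 2 Dhps flox libraries from littermates without it. Lysm cre is expressed from the lysozyme locus Lyz2 in the myeloid lineage, so macrophages and monocytes can lose Dhps as well as neutrophils. Cells were sorted from spleen as CD11b+ Ly6C lo/- Ly6G+, a gate meant to leave out macrophages and monocytes. How many pups went into a library is not given in the sources used here, so p-values measure only the spread between these libraries.

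Scavenger receptors are membrane proteins that bind modified lipoproteins, bacterial surfaces, dying cells and other polyanionic ligands. Class A receptors (MARCO, MSR1 and COLEC12) are trimers with a collagen-like stalk, class B receptors (CD36, SCARB1 and SCARB2) cross the membrane at both ends and handle lipids or lysosomal cargo, and stabilin-1 (STAB1) is a large receptor of macrophages and sinusoidal endothelium. In the spleen, MARCO is best known on macrophages of the marginal zone, where it captures blood-borne bacteria, and it can be induced on other myeloid cells by microbial stimuli.

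Values were deposited as FPKM, fragments per kilobase of transcript scaled to the mapped fragments of the library, which are comparable between genes because they are scaled by length. FPKM summed to between 304281 and 319286 per library, and the steps between low values corresponded to roughly 29600000 to 32900000 mapped fragments. Dhps was at 2.38 FPKM in replicate 1 and 2.59 FPKM in replicate 2 of Dhps cko, with 3.57 and 3.11 FPKM in Dhps flox, so the targeted transcript was lower in Dhps cko but still present at 74.4% of the Dhps flox mean. Lyz2, the locus that carries the cre insertion, was at 34.5% of the Dhps flox mean and lower in both Dhps cko libraries. Neither gene goes against a label. Y-linked genes were lower and Xist was higher in both Dhps cko libraries. The summed FPKM of Ddx3y, Eif2s3y, Kdm5d and Uty was 7.07 and 8.07 in Dhps cko and 17.6 and 15.6 in Dhps flox. Xist was at 27.54 and 20.27 FPKM in Dhps cko and 16.25 and 17.17 FPKM in Dhps flox. Sex composition and genotype therefore cannot be told apart for any gene below. Every library held both Xist and Y-linked RNA, a mix that 1 pup alone would not give.

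Marco (ENSMUSG00000026390; GRCm38 chromosome 1, 120474538 to 120505024, minus strand) was the most abundant of the 7 receptors. It was at 15.57 FPKM in replicate 1 and 16.23 FPKM in replicate 2 of Dhps cko, and the corresponding values in Dhps flox were 9.42 and 9.12 FPKM. Both Dhps cko libraries lay well above both Dhps flox libraries, and the libraries of each genotype lay close together. The mean was 15.9 ± 0.467 FPKM (SD, n = 2) in Dhps cko and 9.27 ± 0.212 FPKM (SD, n = 2) in Dhps flox, a 1.72-fold difference and 0.77 (standard error 0.07) on the log2(FPKM + 0.1) scale. At the approximate depths these levels stand for roughly 986 and 972 fragments in Dhps cko and 542 and 520 in Dhps flox, counted over all exon bases, which overstates the number where transcripts are shorter. No other annotated gene overlaps Marco. In a bulk sample, a difference in the number of cells that express a gene and a difference in its RNA per cell cannot be told apart.

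Among all genes, Marco ranked 3138 by mean level. Marco made up 45.0% and 45.3% of the summed FPKM of the 7 receptors in Dhps cko and 32.6% and 31.2% in Dhps flox. This difference largely follows from the choice of Marco and is a description only.

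**Figure D1:**
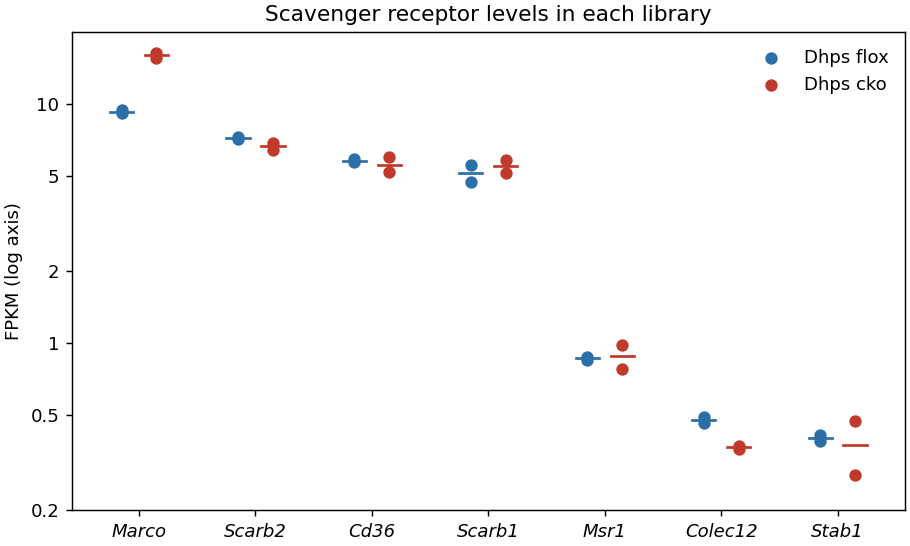
FPKM of the 7 scavenger receptor genes on a log axis, with 1 point per library (blue, Dhps flox; red, Dhps cko) and a line at each group's mean. Marco is separated by genotype at about 16 against 9 FPKM, while the points of the other receptors lie at similar heights in both genotypes.

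None of the other 6 receptors passed the test. With an adjusted p under 0.05 from limma (Benjamini-Hochberg over the 17948 genes that averaged 0.1 FPKM or more), 0 of the 6 were called, against 0.00557% of all genes tested. At an unadjusted p under 0.05 the count was also 0 of 6, against 4.72% of all genes tested called higher and 2.28% called lower. All 7 receptors passed the filter on low values. Of the 6, 0 were higher in both Dhps cko libraries than in both Dhps flox libraries, against 20.0% of all genes tested, and 2 were lower in both, against 16.0%. Their median log2 fold change was -0.08, and that of all genes tested was 0.01. The median of the 6 was -0.03 without Dhps cko replicate 1 and -0.14 without Dhps cko replicate 2. Their summed FPKM was 19.0 and 19.6 in Dhps cko and 19.5 and 20.1 in Dhps flox.

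Msr1 and Colec12, the other class A genes, were expressed at low levels. Msr1 (ENSMUSG00000025044; chromosome 8, 39581685 to 39642673) encodes the macrophage receptor SR-A, which takes up acetylated lipoprotein. It was at 0.78 and 0.98 FPKM in Dhps cko and at 0.87 and 0.85 FPKM in Dhps flox. The Dhps flox values lay between the Dhps cko values, so the groups overlapped. The log2 fold change was 0.02 (95% interval -0.52 to 0.57, adjusted p = 0.993 from limma), which allows anything from 0.696 to 1.48 times the Dhps flox level, and its sign turned when libraries were scaled to TPM or by quantiles.

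Colec12 (ENSMUSG00000036103), a collectin with a collagen-like stalk that is expressed mainly by endothelium and stroma, was at 0.36 and 0.37 FPKM in Dhps cko and at 0.46 and 0.49 FPKM in Dhps flox. It was the member with the lowest Dhps cko level relative to Dhps flox, at 76.8%, and its groups did not overlap. The log2 fold change of -0.31 (95% interval -0.98 to 0.37) had an adjusted p of 0.84 from limma. These levels correspond to roughly 100 to 127 fragments per library.

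Class B receptors were expressed at intermediate levels. Scarb2 (ENSMUSG00000029426; chromosome 5, 92441314 to 92506833) encodes LIMP-2, a lysosomal membrane protein. Its values were 6.41 and 6.86 FPKM in Dhps cko and 7.22 and 7.12 FPKM in Dhps flox. Both Dhps cko values lay below both Dhps flox values by a small margin, with a log2 fold change of -0.11 (95% interval -0.33 to 0.10, adjusted p = 0.82 from limma).

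Cd36 (ENSMUSG00000002944; chromosome 5, 17781690 to 17888801), a fatty acid and oxidised lipoprotein receptor of macrophages, platelets and microvascular endothelium, was at 5.16 and 5.96 FPKM in Dhps cko and at 5.85 and 5.69 FPKM in Dhps flox. The Dhps cko libraries lay on either side of the Dhps flox libraries. For Cd36, the log2 fold change was -0.06 (95% interval -0.33 to 0.22, adjusted p = 0.948 from limma).

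Scarb1 (ENSMUSG00000037936; chromosome 5, 125277087 to 125341094) encodes SR-BI, the receptor for high-density lipoprotein. It was at 5.82 and 5.13 FPKM in Dhps cko and at 4.70 and 5.52 FPKM in Dhps flox, with overlapping groups. Limma gave a log2 fold change of 0.10 (95% interval -0.22 to 0.42, adjusted p = 0.907). The upper bounds correspond to 1.07 times the Dhps flox level for Scarb2, 1.16 times for Cd36 and 1.34 times for Scarb1.

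Stab1 (ENSMUSG00000042286; chromosome 14, 31139013 to 31168641) was at 0.47 and 0.28 FPKM in Dhps cko and at 0.39 and 0.41 FPKM in Dhps flox. Its Dhps cko libraries differed from each other more than the genotypes did. The log2 fold change was -0.10 (95% interval -0.95 to 0.74, adjusted p = 0.971 from limma), at roughly 90 to 159 fragments per library. Of the exon bases of Stab1, 1.1% overlap Nt5dc2 on the opposite strand.

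By mean level over the 4 libraries the order was Marco (12.6 FPKM), Scarb2 (6.9 FPKM), Cd36 (5.67 FPKM), Scarb1 (5.29 FPKM), Msr1 (0.87 FPKM), Colec12 (0.42 FPKM) and Stab1 (0.388 FPKM). Marco lay above Scarb2, and Scarb2 above Cd36, in each of the 4 libraries. Cd36 and Scarb1 were not separated beyond their spread, and neither were Colec12 and Stab1.

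**Figure D2:**
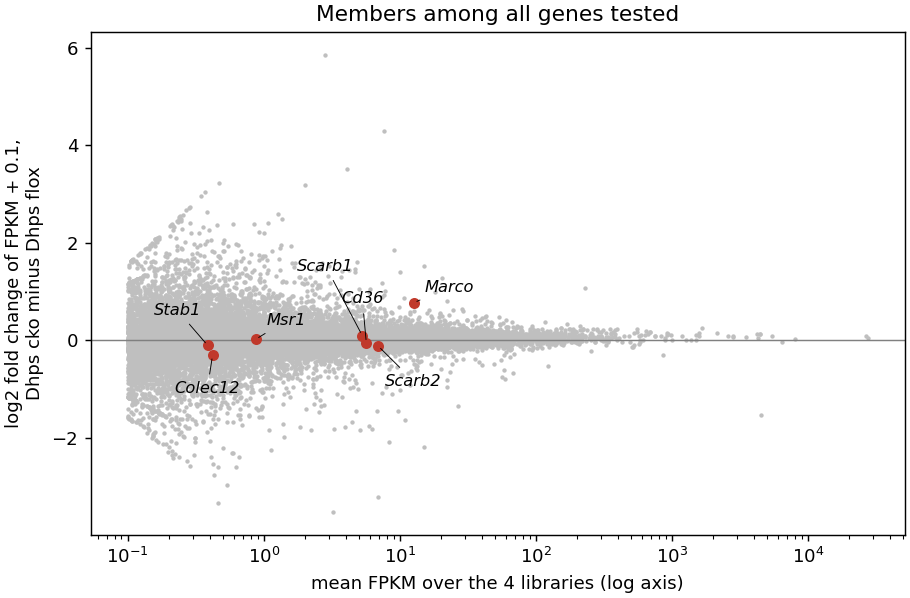
Log2 fold change (Dhps cko minus Dhps flox, of FPKM + 0.1) against mean FPKM on a log axis for the 17948 genes tested (grey), with the 7 receptors in red. Marco, the gene that chose the set, lies at 0.77, and the other 6 lie between -0.31 and 0.10 within the bulk of the cloud.

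Upstream sequence was available for 4 of the 7 receptors in the RefSeq table of GRCm38.p6, as the stretch before the annotated gene start. Those of Marco and Stab1 are shown because both genes start at the same base in RefSeq and in a GENCODE M21 transcript, and because both hold the same myeloid motif, while the genotypes overlapped for Stab1 and not for Marco. Each sequence is the 250 bases before the start, written 5′ to 3′ on the strand of the gene, which is the minus strand for both. Capitals mark GAGGAA, the core bound by PU.1, the myeloid factor encoded by Spi1.

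Marco (chr1:120505025-120505274): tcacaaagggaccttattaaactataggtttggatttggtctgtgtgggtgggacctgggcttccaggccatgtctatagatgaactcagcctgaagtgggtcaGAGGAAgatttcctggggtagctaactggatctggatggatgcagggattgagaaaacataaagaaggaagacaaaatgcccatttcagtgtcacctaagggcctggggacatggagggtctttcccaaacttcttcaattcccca
Stab1 (chr14:31168642-31168891): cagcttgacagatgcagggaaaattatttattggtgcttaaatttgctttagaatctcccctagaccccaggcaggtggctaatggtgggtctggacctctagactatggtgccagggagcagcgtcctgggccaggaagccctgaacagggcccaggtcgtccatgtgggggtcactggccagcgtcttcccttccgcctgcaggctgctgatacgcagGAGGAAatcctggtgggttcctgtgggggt

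In Marco the motif lay 146 to 141 bases before the start, and in Stab1 it lay 30 to 25 bases before the start. It was present on either strand in 23.3% of the 32851 upstream stretches of the same length in the table. The AP-1 site TGANTCA (6.75% of stretches), the E-box CACGTG (6.02%), the antioxidant response core TGACNNNGC (10.2%) and the TATA box TATAAA (12.4%) were also searched on both strands, and none of these letters occurred in the Marco or the Stab1 stretch. The upstream stretch of Scarb2 held 1 match to TGACNNNGC, and that of Cd36 held no match to any of the motifs. A match is a description of the letters only.

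Transcription regulators were expressed in both genotypes, and whether they act on these promoters was not tested. Of 9 transcription regulators of macrophage and lipid genes, 0 had an unadjusted p under 0.05 from limma (4.72% of all genes tested were higher and 2.28% lower by this measure), 4 were higher in both Dhps cko libraries (20.0% of all genes tested), and the median log2 fold change was 0.09. Spi1 was at 154.5 and 151.95 FPKM in Dhps cko and at 135.42 and 152.67 FPKM in Dhps flox, with overlapping groups. Nfe2l2, which encodes the oxidative stress factor NRF2, was at 48.47 and 51.5 FPKM in Dhps cko and at 46.8 and 45.38 FPKM in Dhps flox, both higher, with a log2 fold change of 0.12 (95% interval -0.04 to 0.27, adjusted p = 0.774). Cebpb, a factor of emergency granulopoiesis, was at 21.91 and 16.28 FPKM in Dhps cko and at 15.65 and 21.35 FPKM in Dhps flox and varied as much within as between genotypes.

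A wider list of 16 scavenger receptors of several classes was then compared. Of these, 13 passed the filter on low values, and Scara5, Megf10 and Cd163l1 did not. None of the 13 (0 of 13) was called after adjustment over all genes, and 1 reached an unadjusted p under 0.05, higher in Dhps cko, a share near the 4.72% of all genes tested. In 6 of the 13, both Dhps cko libraries were above both Dhps flox libraries, against 20.0% of all genes tested, and 0 of 13 were below, against 16.0%. All 13 log2 fold changes were above 0 (13 of 13), although of Cd68, Cd44 and Clec7a, the genes followed under the alternatives, Cd44 was below 0 after scaling to TPM or by quantiles and without Dhps flox replicate 2, and Clec7a without Dhps cko replicate 2. The median log2 fold change of the 13 was 0.14, beside 0.01 over all genes. It was 0.07 under a filter at 1 FPKM, 0.08 without Dhps flox replicate 1 and 0.26 without Dhps flox replicate 2.

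Cd68, a lysosomal glycoprotein of macrophages and other phagocytes, was the gene with an unadjusted p under 0.05. It was at 45.01 and 41.92 FPKM in Dhps cko and at 33.56 and 37.57 FPKM in Dhps flox. Both Dhps cko libraries were higher, 1.22-fold on average, with a log2 fold change of 0.29 (standard error 0.08, adjusted p = 0.574 from limma). Cd44, the hyaluronan receptor of most leukocytes, was the most abundant gene of the list, at 134.54 and 134.84 FPKM in Dhps cko and 136.83 and 129.94 FPKM in Dhps flox. Clec7a, which encodes the beta-glucan receptor dectin-1, was at 28.39 and 30.95 FPKM in Dhps cko and 28.79 and 28.06 FPKM in Dhps flox. Neither Cd44 nor Clec7a separated the genotypes.

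**Figure D3:**
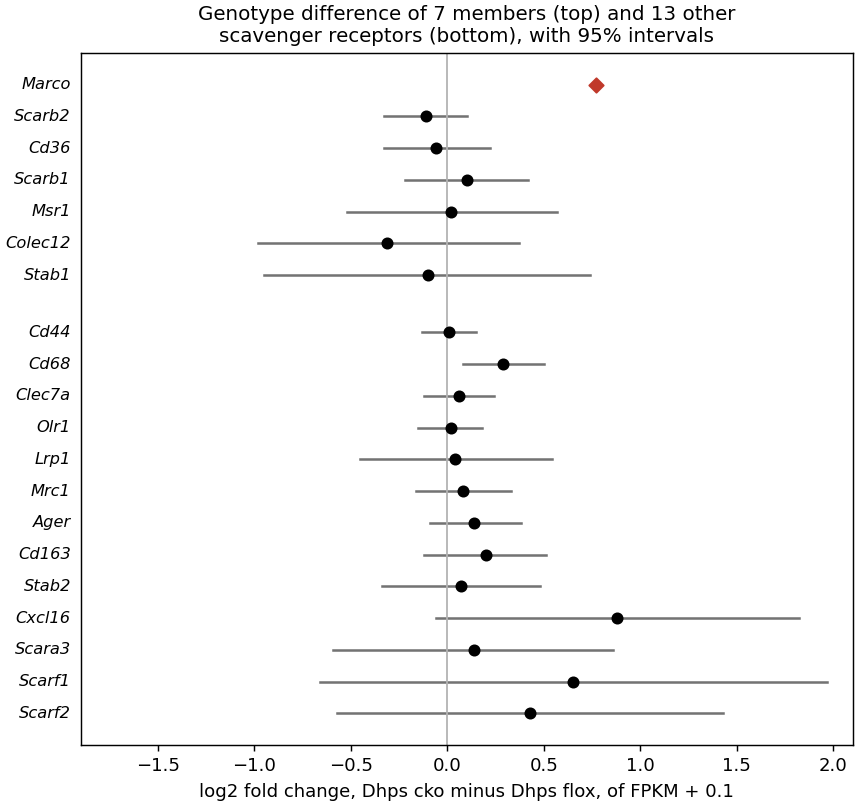
Log2 fold change (Dhps cko minus Dhps flox, of FPKM + 0.1) of the 7 receptors (top) and of 13 other scavenger receptors (bottom), with 95% intervals from limma as lines. Marco (diamond, 0.77) has no interval because it chose the set, and of the other genes only the interval of Cd68, 0.08 to 0.50, lies clear of 0.

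Genes of receptor partners and cargo gave a mixed picture. Of 8 genes, 3 were higher in both Dhps cko libraries (20.0% of all genes tested) and 1 was lower (16.0% of all genes), and 0 of 8 were called after adjustment. The median log2 fold change was 0.12. Cd14, the co-receptor that passes bacterial lipopolysaccharide to TLR4, went the opposite way to Marco. It was at 12.02 and 12.5 FPKM in Dhps cko and at 17.62 and 15.27 FPKM in Dhps flox, with a log2 fold change of -0.42 (standard error 0.09, unadjusted p = 0.0063 and adjusted p = 0.51 from limma). Tlr2, a signalling partner of MARCO and CD36, was at 17.9 and 20.76 FPKM in Dhps cko and 18.39 and 18.2 FPKM in Dhps flox, and Lyn, a Src family kinase, had a log2 fold change of 0.03.

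Lipid handling genes lay on both sides of 0. Among 10 genes, 5 were higher (20.0% of all genes tested) and 2 were lower (16.0%) in both Dhps cko libraries, 2 reached an unadjusted p under 0.05 as higher (4.72% of all genes), the median log2 fold change was 0.06, and 0 of 10 had an adjusted p under 0.05. Npc2, the lysosomal cholesterol carrier, was at 13.53 and 14.24 FPKM in Dhps cko and at 11.32 and 11.65 FPKM in Dhps flox (log2 fold change 0.27, unadjusted p = 0.0117 and adjusted p = 0.561 from limma). Fabp4, a fatty acid binding protein of macrophages and endothelium, was at 0.81 and 0.79 FPKM in Dhps cko and 0.48 and 0.40 FPKM in Dhps flox (log2 fold change 0.74, unadjusted p = 0.0252 and adjusted p = 0.629 from limma). Its log2 fold change ranged from 0.32 (pseudocount 1) to 0.85 over the alternatives. Plin2, which coats lipid droplets, was at 35.29 and 36.15 FPKM in Dhps cko and 36.42 and 36.53 FPKM in Dhps flox, slightly lower in both. Soat1, which esterifies cholesterol, was at 15.93 and 15.55 FPKM in Dhps cko and 14.07 and 14.63 FPKM in Dhps flox, higher in both (adjusted p = 0.769 from limma).

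To see which cells the receptors point to, marker lists of cell types were set beside them. Neutrophil genes dominated every library. Ngp, a neutrophil granule protein and the most abundant gene of the list, was at 27901.98 and 27612.01 FPKM in Dhps cko and 27249.12 and 26339.45 FPKM in Dhps flox. Ly6g, the gene of the sorting antigen, was at 222.16 and 241.58 FPKM in Dhps cko and 194.95 and 184.8 FPKM in Dhps flox, higher in both (log2 fold change 0.29, unadjusted p = 0.00801 and adjusted p = 0.529 from limma). The summed neutrophil list was 69817 and 71935 FPKM in Dhps cko and 69595 and 65046 FPKM in Dhps flox, and the median of its 9 log2 fold changes was 0.11.

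Macrophage and monocyte lists summed to much less than the neutrophil list. Their summed levels were higher in both Dhps cko libraries. Genotypes overlapped for 5 of 12 red pulp, 0 of 3 marginal zone and 2 of 5 monocyte genes. After adjustment with limma, 0 were called. The red pulp macrophage list summed to 274 and 289 FPKM in Dhps cko and 245 and 233 FPKM in Dhps flox, a ratio of 1.18. Of its 12 genes, 7 were higher in both Dhps cko libraries (20.0% of all genes tested) and 5 overlapped, and 5 reached an unadjusted p under 0.05 as higher (4.72% of all genes). The median of the 12 log2 fold changes was 0.17. Hmox1, the haem-degrading enzyme, was at 70.0 and 73.96 FPKM in Dhps cko and 61.78 and 64.55 FPKM in Dhps flox. Slc40a1, the iron exporter ferroportin, lay between 50.18 and 53.65 FPKM and did not separate the genotypes. Spic and Vcam1, which mark red pulp macrophages, did not either. Adgre1, Cd163 and Axl were higher in both Dhps cko libraries. Adgre1 was at 16.74 and 16.53 FPKM in Dhps cko and 15.35 and 13.2 FPKM in Dhps flox. No gene of this list was at 0 in any library.

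Within that list the 3 complement C1q genes, named after their values were seen, lay closest to Marco in size. C1qa was at 25.73 and 28.31 FPKM in Dhps cko and 18.62 and 18.67 FPKM in Dhps flox (log2 fold change 0.53, adjusted p = 0.379 from limma). C1qb had a log2 fold change of 0.63 (adjusted p = 0.47) and C1qc 0.50 (adjusted p = 0.488). Without the C1q genes the red pulp list summed to 200.0 and 210 FPKM in Dhps cko and 191 and 184 FPKM in Dhps flox, a ratio of 1.09, beside 1.05 for the neutrophil list.

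Of the marginal zone macrophage list, Cd209b was not analysed here. Siglec1, which encodes CD169, was at 3.19 and 2.81 FPKM in Dhps cko and 2.08 and 2.53 FPKM in Dhps flox (log2 fold change 0.37, adjusted p = 0.736 from limma). Timd4, a phosphatidylserine receptor of resident macrophages, was at 3.19 and 2.65 FPKM in Dhps cko and 1.82 and 2.56 FPKM in Dhps flox (log2 fold change 0.41, adjusted p = 0.77). With each library left out, the log2 fold change ranged from 0.23 (without Dhps flox replicate 1) to 0.51 (without Dhps flox replicate 2) for Siglec1, and from 0.18 to 0.65 for Timd4 without the same libraries. Nr1h3, the third gene, was also higher in both Dhps cko libraries (adjusted p = 0.78 from limma), so that 3 of 3 did not overlap, against 20.0% of all genes tested. The list summed to 7.79 and 7.32 FPKM in Dhps cko and 4.94 and 6.47 FPKM in Dhps flox, a ratio of 1.32, and Marco was more abundant in every library than the 3 genes together.

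The monocyte list summed to 245 and 233 FPKM in Dhps cko and 202 and 210 FPKM in Dhps flox, a ratio of 1.16. Ly6c2 made up most of it, at 192.22 and 183.75 FPKM in Dhps cko and 157.95 and 160.82 FPKM in Dhps flox. It is a gene of the gated antigen Ly6C, and the gate kept cells low in Ly6C, so the sum need not come from monocytes. Csf1r, the receptor for the macrophage growth factor, was at 39.95 and 38.28 FPKM in Dhps cko and 34.6 and 37.8 FPKM in Dhps flox. Of the 5 genes, 3 were higher in both Dhps cko libraries and 0 were lower, against 20.0% and 16.0% of all genes tested. Ly6c2 and Ccr2, the monocyte chemokine receptor, reached an unadjusted p under 0.05 as higher (2 of 5, against 4.72% of all genes). Ccr2 was at 2.95 and 2.73 FPKM in Dhps cko and 2.06 and 2.0 FPKM in Dhps flox (log2 fold change 0.46, unadjusted p = 0.0133 and adjusted p = 0.568 from limma).

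The level of Marco was also expressed as a share of these summed markers. Marco was chosen for its higher level in Dhps cko, so the direction of these shares was largely set by that choice. Marco was 5.69% and 5.61% of the summed red pulp list in Dhps cko and 3.85% and 3.91% in Dhps flox. Against the monocyte list it was 6.35% and 6.97% in Dhps cko and 4.67% and 4.34% in Dhps flox. Against the marginal zone list it was 200.0% and 222% in Dhps cko and 191% and 141% in Dhps flox, a much narrower gap in 1 of the libraries. The part that macrophages in the sorted cells play in the difference in Marco was not tested.

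The endothelial list summed to 7.69 and 8.06 FPKM in Dhps cko and 7.85 and 7.73 FPKM in Dhps flox, and 0 of its 4 tested genes separated the genotypes, where 20.0% of all genes were higher and 16.0% lower without overlap. Lyve1 (4.36 to 4.59 FPKM) and Pecam1 (2.86 to 3.07 FPKM), which leukocytes can also express, made up nearly all of it. The more restricted endothelial genes were at or near 0, with Cdh5 between 0.06 and 0.15 FPKM and Kdr between 0.04 and 0.07 FPKM. Emcn and Robo4 were listed at 0 in replicate 2 of both genotypes and at no more than 0.02 and 0.05 FPKM in the others. Stab2, the sinusoidal relative of Stab1, was at 1.37 and 1.53 FPKM in Dhps cko and 1.39 and 1.36 FPKM in Dhps flox.

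Summed levels of lymphocyte, eosinophil, dendritic cell and intestinal genes were also higher in both Dhps cko libraries. Over all genes tested, 20.0% were higher in both Dhps cko libraries, which is the share to read the counts in these lists against. B cell markers summed to 23.1 and 23.2 FPKM in Dhps cko and 13.6 and 18.0 FPKM in Dhps flox, a ratio of 1.47. The median log2 fold change was 0.66, 3 of 7 genes reached an unadjusted p under 0.05 as higher (4.72% of all genes), and 6 of 7 genes were higher in both Dhps cko libraries, with Cd79b the most abundant at 6.14 to 9.46 FPKM. T cell markers summed to 16.7 and 13.9 FPKM in Dhps cko and 11.2 and 7.51 FPKM in Dhps flox, a ratio of 1.64 with a median log2 fold change of 0.66. Of these, 2 of 7 reached an unadjusted p under 0.05, with 4 of 7 genes higher in both. Trbc2 was the most abundant by the mean of all 4 libraries. Without Trbc2 the log2 ratio of the summed list was 0.32, against 0.71 with it. Eosinophil markers summed to 12.1 and 10.5 FPKM in Dhps cko and 8.34 and 8.78 FPKM in Dhps flox, a ratio of 1.32. Siglecf, the most abundant of them, overlapped between genotypes, while 3 of 5 were higher in both Dhps cko libraries. By limma, 1 of 5 reached an unadjusted p under 0.05 as higher (4.72% of all genes). Dendritic cell markers summed to 2.38 and 2.26 FPKM in Dhps cko and 1.29 and 1.69 FPKM in Dhps flox, a ratio of 1.56. Clec9a, the most abundant, overlapped, while 3 of 4 tested genes were higher in both Dhps cko libraries. By limma, 0 of the 4 reached an unadjusted p under 0.05. Intestinal epithelium genes summed to 44.3 and 29.3 FPKM in Dhps cko and 27.4 and 16.0 FPKM in Dhps flox, a ratio of 1.69 with a median log2 fold change of 1.15. Of these, 5 of 8 genes reached an unadjusted p under 0.05 and the same number were higher in both, but Lgals4, the most abundant by the mean of all 4 libraries, was at 6.44 and 4.85 FPKM in Dhps cko and 9.73 and 5.41 FPKM in Dhps flox. Summed levels overlapped for stroma (27.2 to 32.2 FPKM in Dhps cko and 23.6 to 29.9 FPKM in Dhps flox, led by Col1a1), erythroid genes (451 to 541 and 368 to 552 FPKM, led by Hbb-bs) and platelet genes (2.2 to 3.17 and 1.66 to 4.43 FPKM, led by Pf4). The part of these cells in the difference in Marco was not tested.

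**Figure D4:**
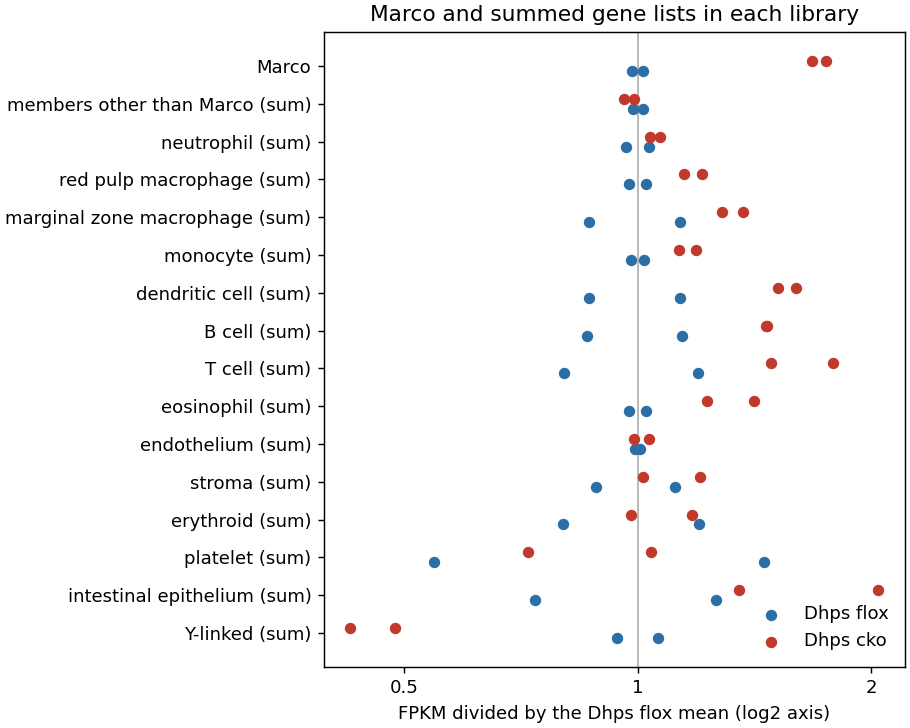
FPKM of Marco and summed FPKM of each gene list, divided by the mean of the 2 Dhps flox libraries, on a log2 axis with 1 point per library (blue, Dhps flox; red, Dhps cko). Marco and the macrophage, monocyte, lymphocyte, dendritic cell, eosinophil and intestinal lists lie to the right in Dhps cko, the Y-linked genes lie to the left, and the other 6 receptors and the endothelial list lie close to 1.

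Genes with the profile most like that of Marco over the 4 libraries were found by the Euclidean distance between centred log2(FPKM + 0.1) profiles, among genes that averaged 1 FPKM or more. The nearest were Fmod, which encodes a proteoglycan of connective tissue (distance 0.0576), Col2a1, the collagen of cartilage (0.109), Ighd, the constant region of immunoglobulin D (0.135), and H2-Eb1, an MHC class II chain (0.14). Fmod was at 1.85 and 1.84 FPKM in Dhps cko and 1.08 and 1.05 FPKM in Dhps flox. Col2a1 was at 7.77 and 7.3 FPKM in Dhps cko and 4.55 and 4.33 FPKM in Dhps flox. H2-Eb1 was at 6.89 and 7.64 FPKM in Dhps cko and 4.28 and 4.59 FPKM in Dhps flox. None of these is a scavenger receptor, and with 4 libraries many genes can share such a profile.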

How the data were processed

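The authors filtered reads with Cutadapt, aligned them with HISAT2 to the mouse genome (mm10 in the submitters' processing notes) and deposited FPKM per gene from StringTie and ballgown, rounded to 2 decimals. Annotation and strand setting are not given in the sources used here. Of the deposited gene identifiers, 28511 are in GENCODE M21, which gave the coordinates.

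Genes that averaged 0.1 FPKM or more were put on the log2(FPKM + 0.1) scale. Dhps cko and Dhps flox were tested against each other by limma (version 3.58.1, R 4.3.3), with a trended prior variance and without a replicate block, with Benjamini-Hochberg adjustment over all genes tested. Fold changes on this scale understate those of low genes. The fit was tested on simulated data, where it returned the fold changes that were put in but left many true changes uncalled, large ones included. A first pass mark on the share called was not met and was replaced by one on fold changes and false calls, so an adjusted p over the threshold says little in a design of 2 against 2. Fragment numbers multiply FPKM by all exon bases and an approximate depth, so they are rough and tend to be too high, and whole reads were not recovered: 38.4% to 41.4% of low values were close to whole multiples of 1 fragment, and chance alone gives 30%. The depth search was limited after 1 library was seen to match a multiple of its likely depth. 

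Genes were named by rule: the members, Dhps and Lyz2, list genes with an unadjusted p under 0.05 in the pathway lists, the most abundant genes of each list, and the 5 profiles nearest to Marco. Ly6g, Spic, Vcam1, Adgre1, Cd163, Axl, Nr1h3, Ccr2, Stab2, Cdh5, Kdr, Emcn, Robo4 and the C1q genes fell outside the rule. They were named after their values were seen. Some genes that the rule names are not reported here. The members and lists were chosen with earlier results of these data known. Spic, Cd163, Mrc1 and Nr1h3 are each in more than 1 list. Alternatives were pseudocounts, filters, scalings, the variance trend, a replicate block and leaving out each library.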

Additional observations from a re-analysis of the deposited data

How the results depend on the processing

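The log2 fold change of Marco ranged from 0.72 (pseudocount 1) to 0.80 over 13 alternatives, with a direction that its choice fixed. The other 6 receptors had an adjusted p of at least 0.619 from limma wherever they were tested. Msr1, Colec12 and Stab1 were not tested under the filter at 1 FPKM. The number of genes with an adjusted p under 0.05, 1 in the comparison reported, was 0 with a pseudocount of 0.01, with no filter and with each library left out, 2 after scaling to TPM or by quantiles, and 4 with a filter at 1 FPKM. With the replicate number as a block (replicate block) it was 0. Same-numbered libraries did not deviate together (r = -0.057 across 10629 genes, which are not independent replicates). With so few libraries this does not show whether they were paired. The block changed no call among the receptors.

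The median of the 6 receptors other than Marco was -0.04 with a pseudocount of 1 and -0.12 after scaling to TPM. The median of the other scavenger receptors was 0.07 with a filter at 1 FPKM, and from 0.08 to 0.26 (highest without Dhps flox replicate 2) with each library left out. Uncalled log2 fold changes near 0 changed sign: on scaling to TPM or by quantiles, Msr1 (-0.01 and 0.00), Cd44 (-0.02 in both), Slc40a1 (0.00 in both) and Lyve1 (-0.03 and -0.01, also -0.01 with size factors), and by quantiles Lyn (-0.03). With each library left out the ranges were -0.13 to 0.17 for Msr1, -0.16 to 0.05 for Cd36, -0.01 to 0.21 for Scarb1, -0.40 to 0.19 for Stab1, -0.02 to 0.05 for Cd44, 0.00 to 0.12 for Clec7a, -0.03 to 0.18 for Tlr2, -0.02 to 0.09 for Lyn, -0.18 to 0.27 for Cebpb, 0.00 to 0.07 for Slc40a1 and -0.03 to 0.04 for Lyve1. The log2 ratio of summed marker lists without the most abundant gene was 0.14 for monocytes, 1.27 for dendritic cells, 0.32 for T cells and 0.79 for eosinophils. Without the C1q genes, chosen after seeing the data, it was 0.13 for red pulp macrophages. The causes were not tested. Msr1, Colec12 and Stab1 had the lowest levels and the widest intervals of the receptors.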
